A study of Homo sapiens with 4 samples.

Results

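The 10 genes described here are the transcription factor ATF4, 5 stress-response genes that ATF4 is known to act on (DDIT3, TRIB3, CHAC1, ASNS and SESN2) and 4 genes of serine and glycine synthesis (PHGDH, PSAT1, PSPH and SHMT2). They were chosen by gene symbol, and all 10 were found among 35979 symbols, each with 1 row. All 10 were also among the 14940 genes whose normalized counts averaged at least 20 over the libraries, the minimum used for every comparison across genes.

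The cells were NCI-H1048, a long-established line of human small cell lung cancer of the tuft cell-like subtype, in which the transcription factor POU2F3 is a lineage factor. Poly(A) RNA was sequenced in 4 libraries. The 2 libraries of the COLCA2 group are titled COLCA2 gRNA 1 and 2 and are read here as different guide RNAs (gRNA) against COLCA2. The product of COLCA2 acts as a co-activator of POU2F3, and both libraries carry the genotype label COLCA2 knockout. The POU2F3 group was 1 library from cells given a POU2F3 gRNA, labelled POU2F3 knockout, and 1 library from cells given a non-targeting gRNA, labelled WT, served as the control. No other treatment is labelled in any library, and whether the cells were clones or pools, and how long after targeting they were taken, is not given in the sources used here.

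The integrated stress response is a pathway in which kinases that sense amino acid shortage, unfolded protein, viral RNA or haem shortage phosphorylate the translation factor eIF2. General translation then falls while translation of the ATF4 mRNA rises, so ATF4 protein can change without its transcript, and the libraries measure only transcripts. ATF4 in turn drives genes of amino acid uptake and synthesis, among them the serine pathway, and, under prolonged stress, genes linked to cell death such as DDIT3 and CHAC1. Serine made from the glycolytic intermediate 3-phosphoglycerate feeds glycine, one-carbon units and glutathione.

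ATF4 is known to bind composite elements shared with C/EBP proteins, and sequence is shown for the members in which such a stretch was found. RefSeq promoter windows (GRCh38.p14, 300 bases around a gene's start) were held for 8 of the 10 members, not for PSPH and SHMT2. They were searched on both strands for TGATGNAA, a core of these elements, in which N is any base. The core was present in 2 of the 13 windows held for these members, 1 of CHAC1 and 1 of ASNS, and in 3.62% of all 35116 windows. These are the 30 bases around each match, given 5′ to 3′ on the gene's strand with the matched bases in capitals.
ASNS: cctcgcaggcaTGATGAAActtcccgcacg
CHAC1: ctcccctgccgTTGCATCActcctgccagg
The ASNS stretch lies at chr7:97872458-97872487 on the minus strand, and its match begins 68 bases before the annotated start. The CHAC1 stretch lies at chr15:40953251-40953280 on the plus strand, its match begins 209 bases before the start, and it reads as the core on the opposite strand. In GENCODE release 29 both genes begin further upstream than the start used here, and each match lies inside the annotated gene. A match describes the letters only. The core was chosen with the members' values known, and nothing is drawn from it about ATF4 binding in these cells.

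The labels were checked on the targeted genes. POU2F3 stood at 14602 normalized counts in control cells, 1449 under POU2F3 gRNA, 3677 under COLCA2 guide 1 and 2351 under COLCA2 guide 2. COLCA2 had 5585, 1393, 3119 and 3541 in the same order. It stood at 59.5% of the control under the averaged COLCA2 guides and at 25.0% under POU2F3 gRNA. COLCA2 was thus lowest in a library not targeted at it, so its transcript does not by itself bear out the COLCA2 labels. The libraries held between 21587741 and 29632382 reads assigned to genes. Of 9 tuft markers 6 passed the minimum, and their list summed to 40696 in control cells and to between 9683 and 14162 in the targeted libraries. Most of the control sum came from SOX9, at 17848, and from POU2F3, itself a targeted gene, so the sum is not independent of the targeting. All 6 were lower in each targeted library, while TRPM5 and PTGS1, which also mark tuft cells, stayed at 13.4 or less. The 4 epithelial markers all passed and summed to 12082 in control cells and 25819.9 to 37107 in the targeted libraries, but EPCAM among them was lower there, at 2463 to 3408 against 3986. Of the neuroendocrine markers, INSM1 had 118 in control cells and 23.8 to 35.3 in the targeted libraries and fell with both targets by edgeR, and CHGA had at most 2.52. Of 5 immune markers 0 passed, with sums of 24.7 to 38.4, and of 4 endothelial markers 2 passed, with sums of 41.5 to 65.9. CD3E, an immune marker, and KDR, an endothelial one, were listed at 0 throughout. Of 5 fibroblast markers 4 passed, with a list sum of 1219 in control cells and 1267 to 1664 in the targeted libraries. LUM and PDGFRB were higher in the targeted libraries, but the others that passed were not uniformly so. COL1A1, most of the control sum at 1136, had 1186 and 1008 under COLCA2 guides 1 and 2 and 1002 under POU2F3 gRNA. DCN had 35.3 in control cells and 34.2, 61.2 and 50.4 in the same order. What part these shifts have in the results below was not tested. In bulk RNA, fewer cells of a type and less RNA per cell cannot be told apart.

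Against the non-targeting library the members lay on both sides and none reached 2-fold with POU2F3 gRNA or with both COLCA2 guides. DDIT3, TRIB3 and ATF4 were higher in all 3 targeted libraries, from 1.18-fold for ATF4 under POU2F3 gRNA to 1.72-fold for DDIT3 under the averaged COLCA2 guides. CHAC1, ASNS, PSAT1, PHGDH and SHMT2 were lower in all 3, and CHAC1 and ASNS lay furthest down, at 50.2% to 61.7% of the non-targeting level. SESN2 and PSPH stayed close to the control. Among all genes tested, 34.4% were higher and 35.3% lower in all 3 targeted libraries, which share this 1 control, so a common direction is not by itself a result about these genes.

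Without replicates of the control and of POU2F3 gRNA, no test of the conditions is possible, and the main values are log2 ratios of normalized counts with a pseudocount of 1. The spread between the COLCA2 guides, given as SD over n = 2, is the single within-group error these data offer. For genes with a mean of at least 100, the absolute log2 difference between the guides had a median of 0.11, and 95% of these genes were within 0.44. The alternative to this fold rule was edgeR's quasi-likelihood test, applied to the recovered reads of all 14940 genes with Benjamini-Hochberg adjustment at 0.05. Its residual spread comes from the COLCA2 pair alone, with 1 degree of freedom. Each gene's spread is then moderated towards a trend over all genes. The test measures only the spread between these libraries and, for POU2F3 gRNA, compares libraries and not conditions. Rose and fell below are used only for genes that passed this test.

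**Figure D1:**
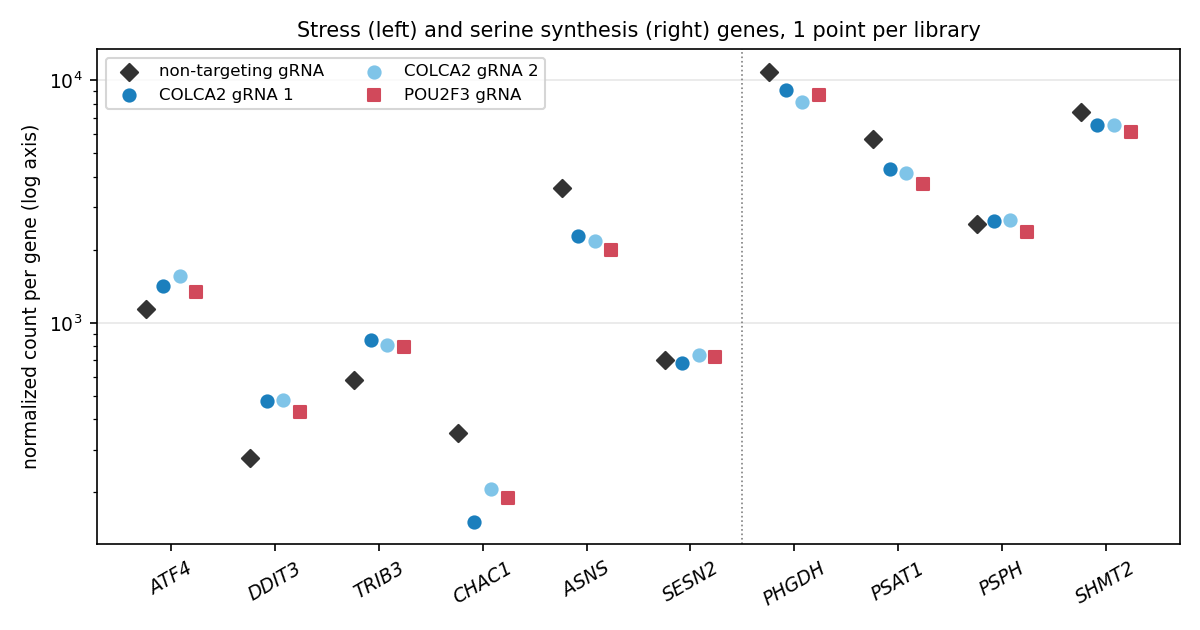
Normalized count of each member in each of the 4 libraries on a log axis, with stress genes to the left of the dotted line and serine synthesis genes to the right. The non-targeting library (diamonds) is the lowest point for ATF4, DDIT3 and TRIB3 and the highest for CHAC1, ASNS, PHGDH, PSAT1 and SHMT2.

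ATF4 (ENSG00000128272, chromosome 22, 39519695 to 39522685, plus strand, GRCh38 and GENCODE release 29 as for all positions below) is the transcription factor on which the response converges. Its level was 1140.2 normalized counts in control cells, 1423 under COLCA2 guide 1, 1552 under COLCA2 guide 2 and 1345 under POU2F3 gRNA. The control was the lowest of the 4. On the log2 scale the mean ratio was 0.38 ± 0.088 (SD, n = 2) with the COLCA2 guides and 0.24 with POU2F3 gRNA, where the 95% exact interval for counting error was 0.13 to 0.35. ATF4 did not pass the edgeR test, with an adjusted p of 0.0582 for COLCA2 and 0.273 for POU2F3.

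DDIT3 (ENSG00000175197, chromosome 12, 57516588 to 57521737, minus strand) encodes CHOP, a factor that promotes cell death when stress persists. It stood at 277 normalized counts in control cells, 474 and 482 under COLCA2 guides 1 and 2, and 431 under POU2F3 gRNA. All 3 targeted libraries lay above the control, and the guides almost coincided. These were the highest ratios among the members: the mean log2 ratio was 0.79 ± 0.018 (SD, n = 2) with the COLCA2 guides, or 1.72-fold, and 0.63 with POU2F3 gRNA, or 1.55-fold. By edgeR DDIT3 rose with COLCA2 gRNA (adjusted p = 0.0166) and missed the threshold with POU2F3 gRNA (adjusted p = 0.0628). Its exons share 355 bp with MARS and 58 bp with MBD6 on the opposite strand, and strand use in the authors' counting is not given in the sources used here. MARS, which encodes methionyl-tRNA synthetase, had 6076 in the control and 5588 to 6133 in the targeted libraries, and MBD6 had 1920.4 and 1631 to 2186. The part of these overlaps in the DDIT3 values was not tested.

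TRIB3 (ENSG00000101255, chromosome 20, 362835 to 397559, plus strand) encodes a pseudokinase that is induced by ATF4 and CHOP and restrains both. The level was 583 normalized counts in control cells, 848 and 810.3 under COLCA2 guides 1 and 2, and 794 under POU2F3 gRNA. The 3 targeted libraries sat within a narrow band above the control. The mean log2 ratio was 0.51 ± 0.046 (SD, n = 2) with the COLCA2 guides and 0.44 with POU2F3 gRNA. TRIB3 rose with COLCA2 gRNA by edgeR (adjusted p = 0.0346), and the adjusted p for POU2F3 gRNA was 0.0915.

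CHAC1 (ENSG00000128965, chromosome 15, 40952962 to 40956519, plus strand) encodes an enzyme that degrades glutathione and is a sensitive transcriptional marker of ATF4 activity. It rested on 146 to 369 reads per library and had the widest counting intervals of the 10. The level was 352 normalized counts in control cells, 151 under COLCA2 guide 1, 206 under COLCA2 guide 2 and 189 under POU2F3 gRNA. The control was the highest, and the guides differed by 0.44 on the log2 scale, more than for any other member. The log2 ratio was -1.21 for guide 1 and -0.77 for guide 2, a mean of -0.99 ± 0.31 (SD, n = 2), so guide 1 passed 2-fold and guide 2 did not. With POU2F3 gRNA it was -0.90, with an interval for counting error of -1.15 to -0.66. CHAC1 fell with COLCA2 gRNA by edgeR (adjusted p = 0.0314), while the adjusted p with POU2F3 gRNA was 0.0935.

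ASNS (ENSG00000070669, chromosome 7, 97852118 to 97872542, minus strand) encodes asparagine synthetase, a classical ATF4 target in amino acid shortage. Its level was 3605 normalized counts in control cells, 2279 and 2173 under COLCA2 guides 1 and 2, and 1993 under POU2F3 gRNA. The control stood well above the other 3 libraries. On the log2 scale the mean ratio was -0.70 ± 0.048 (SD, n = 2) with the COLCA2 guides and -0.85 with POU2F3 gRNA, that is 61.7% and 55.3% of the non-targeting level. ASNS fell with both targets by edgeR, with adjusted p of 0.00322 for COLCA2 and 0.00377 for POU2F3. Of all genes tested, 4.02% had a ratio as low or lower for POU2F3 gRNA, and 6.52% for the averaged COLCA2 guides. AC079781.5, annotated on the same strand, shares 1985 bp with its exons and was not analysed here.

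SESN2 encodes sestrin 2, which dampens mTORC1 signalling when leucine is short or stress is present and is a target of p53 as well as of ATF4. The files give it the identifier ENSG00000285069, which GENCODE release 29 does not list. Its symbol is annotated on chromosome 1, 28259527 to 28282491, plus strand. Its level was 702 normalized counts in control cells, 680.1 and 739 under COLCA2 guides 1 and 2, and 721 under POU2F3 gRNA. The control lay inside the range of the other libraries. The mean log2 ratio with the COLCA2 guides was 0.014 ± 0.084 (SD, n = 2), with guides on either side of 0, and the ratio with POU2F3 gRNA was 0.039. Under POU2F3 gRNA the interval for counting error ran from -0.10 to 0.18, which does not include the shifts seen for DDIT3 or ASNS.

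**Figure D2:**
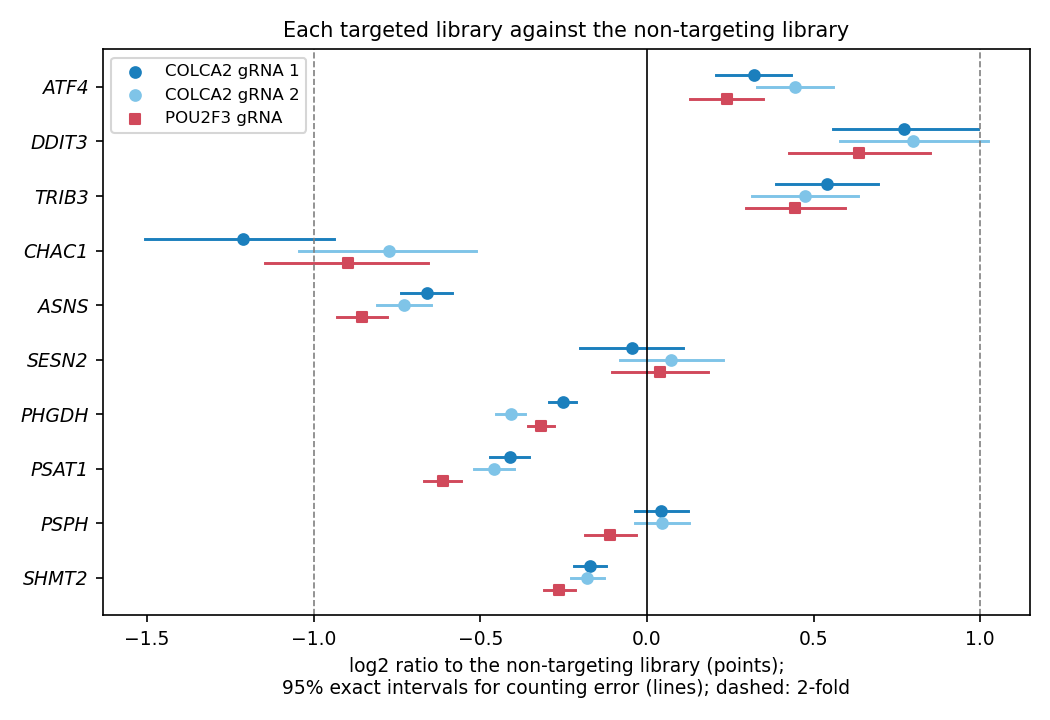
Log2 ratio of each targeted library to the non-targeting library for each member, with points at the ratio after adding the pseudocount and lines for the 95% exact interval that covers counting error in both libraries. DDIT3, TRIB3 and ATF4 lie right of 0, CHAC1 and ASNS lie furthest left, and only CHAC1 with COLCA2 gRNA 1, at -1.21, is past the dashed 2-fold line.

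PHGDH, SHMT2 and PSAT1 of the serine synthesis genes were the most abundant members. Together the 4 had a summed normalized count of 26489.6 in control cells, 22586 and 21478 under COLCA2 guides 1 and 2, and 20944 under POU2F3 gRNA. The targeted libraries thus held between 0.79 and 0.85 of the control sum, with most of the difference in PHGDH and PSAT1. The members did not move by the same amount, as the next values show.

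PHGDH (ENSG00000092621, chromosome 1, 119648411 to 119744226, plus strand) catalyses the committed step from 3-phosphoglycerate. Its level was 10839 normalized counts in control cells, 9099.6 and 8168 under COLCA2 guides 1 and 2, and 8689.7 under POU2F3 gRNA. The control was highest and POU2F3 gRNA lay between the guides. On the log2 scale the mean ratio was -0.33 ± 0.11 (SD, n = 2) with the COLCA2 guides and -0.32 with POU2F3 gRNA. PHGDH did not pass the edgeR test, with an adjusted p of 0.0555 for COLCA2 and 0.130 for POU2F3.

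PSAT1 (ENSG00000135069, chromosome 9, 78297143 to 78330093, plus strand) encodes the aminotransferase of the next step. It stood at 5716 normalized counts in control cells, 4295 and 4157 under COLCA2 guides 1 and 2, and 3736 under POU2F3 gRNA. The order was the same as for ASNS, with the control highest and POU2F3 gRNA lowest. The mean log2 ratio was -0.44 ± 0.033 (SD, n = 2) with the COLCA2 guides and -0.61 with POU2F3 gRNA. PSAT1 fell with both targets by edgeR, with adjusted p of 0.0146 for COLCA2 and 0.00990 for POU2F3.

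PSPH (ENSG00000146733, chromosome 7, 56011051 to 56051604, minus strand) encodes the phosphatase that releases serine. Its level was 2561 normalized counts in control cells, 2639 and 2641 under COLCA2 guides 1 and 2, and 2374 under POU2F3 gRNA. The COLCA2 libraries were slightly above the control and the POU2F3 library below it. On the log2 scale the mean ratio was 0.044 ± 0.0011 (SD, n = 2) for the COLCA2 guides, a direction that turned to -0.025 with equal library totals and -0.0013 with upper quartile scaling. For POU2F3 gRNA the log2 ratio was -0.11. By edgeR the adjusted p was 0.779 for COLCA2 and 0.627 for POU2F3. A related pseudogene, PSPHP1, had normalized counts of 161 to 203, and reads shared between the copies could have been split between them.

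SHMT2 (ENSG00000182199, chromosome 12, 57229327 to 57234935, plus strand) encodes the mitochondrial enzyme that turns serine into glycine and a one-carbon unit. The level was 7373 normalized counts in control cells, 6552 and 6512 under COLCA2 guides 1 and 2, and 6145 under POU2F3 gRNA. All 3 targeted libraries were below the control by a small margin. The mean log2 ratio was -0.17 ± 0.0063 (SD, n = 2) with the COLCA2 guides and -0.26 with POU2F3 gRNA, and the adjusted p by edgeR was 0.189 and 0.142. Its exons share 33 bp with NDUFA4L2 on the opposite strand, which had 195 normalized counts in control cells and 47.7 to 69.4 in the targeted libraries, lower there like SHMT2. They also share 427 bp with AC137834.2 on the opposite strand, which was not analysed here. The part of these overlaps in the values was not tested.

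Set beside all genes, the members had no common direction. With POU2F3 gRNA 6.73% of genes tested were at least 2-fold higher and 3.05% at least 2-fold lower, and with both COLCA2 guides 5.79% and 2.02%, against 0 of 10 members in each case. At 1.5-fold, 1 member was higher and 3 were lower with POU2F3 gRNA (DDIT3, and CHAC1, ASNS and PSAT1), where 12.2% and 7.69% of all genes passed. With both COLCA2 guides DDIT3 was higher and CHAC1 and ASNS were lower at 1.5-fold, against 9.71% and 6.03% of all genes. By edgeR 2 members, ASNS and PSAT1, fell and 0 rose with POU2F3 gRNA, against 3.98% and 8.45% of all genes, and at an unadjusted p under 0.05 there were 7 of 10 in either direction, against 26.6% of all genes. With COLCA2 gRNA 3 members fell (CHAC1, ASNS and PSAT1) and 2 rose (DDIT3 and TRIB3), against 7.51% and 11.4%. The 10 had a median log2 ratio of -0.19 under POU2F3 gRNA and -0.080 under the averaged COLCA2 guides, beside -0.0037 and -0.0086 over all genes tested, and this median spans members of opposite sign. Of 14 reference genes 10 were above 0 for POU2F3 gRNA and 11 for the averaged COLCA2 guides, with medians of 0.12 and 0.27. The ratios of SESN2 and PSPH were no larger than these medians. The highest reference genes, B2M, ACTB and TFRC, had 0.78, 0.77 and 0.68 with the averaged COLCA2 guides. DDIT3, TRIB3 and ATF4 had 0.79, 0.51 and 0.38 there. With POU2F3 gRNA the same reference genes had 0.62, 0.50 and 0.54, beside 0.63, 0.44 and 0.24 for these members. The higher members thus lay within the range of the reference genes or close to its top.

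**Figure D3:**
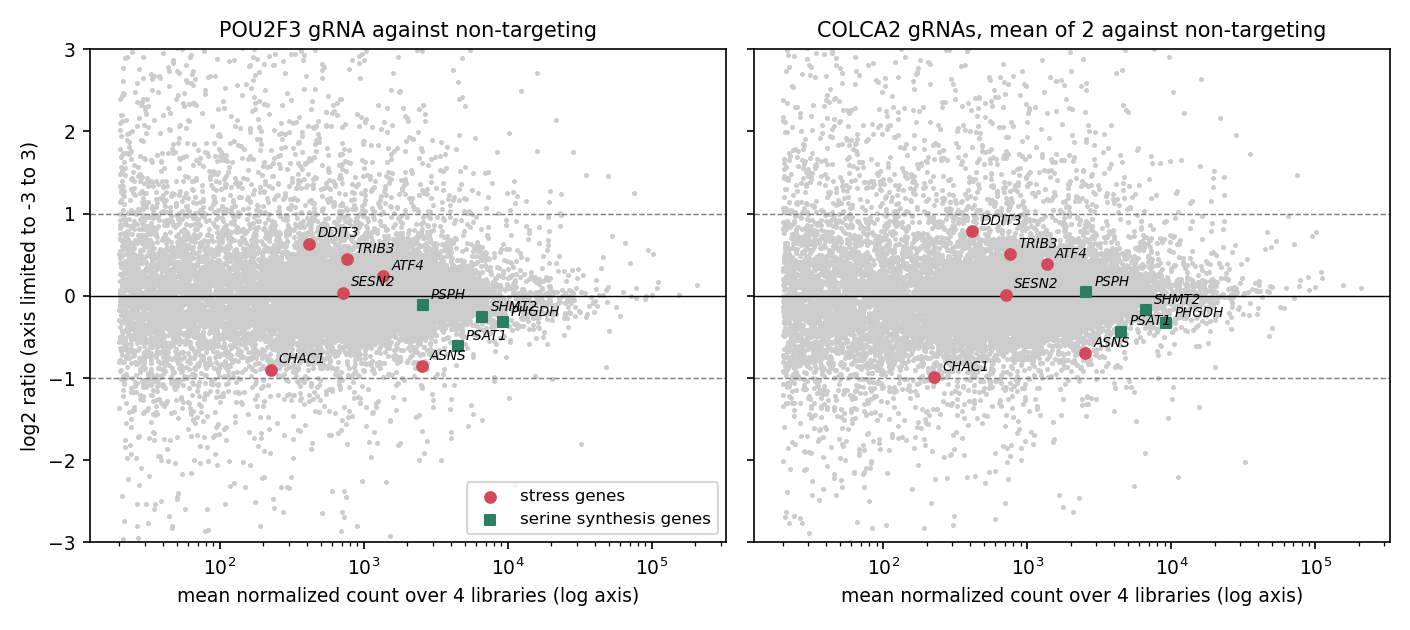
Log2 ratio against mean normalized count for all 14940 genes tested (grey), with the stress members as circles and the serine synthesis members as squares, for POU2F3 gRNA and for the averaged COLCA2 guides; genes beyond 3 on the log2 axis are not drawn. The 10 members stay between the dashed 2-fold lines in both panels, CHAC1 with the COLCA2 guides being closest to one at -0.99.

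Ratios between members within a library do not depend on how libraries were scaled, and 7 pairs of members were taken after values had been seen. The ratio of DDIT3 to ASNS normalized counts was 0.077 in control cells, 0.21 and 0.22 under COLCA2 guides 1 and 2, and 0.22 under POU2F3 gRNA. It was thus between 2.71 and 2.89 times the control value in the targeted libraries, which lay close together. The ratio of DDIT3 to CHAC1 was less uniform, at 2.98 to 3.98 times the control under the COLCA2 guides and 2.90 times under POU2F3 gRNA, and that of TRIB3 to CHAC1 was 2.38 to 3.38 and 2.54 times. ATF4 to ASNS was 1.97 to 2.26 times the control over the 3 libraries. The ratio of TRIB3 to ASNS was 0.16 in the control, 0.37 with either COLCA2 guide and 0.40 with POU2F3 gRNA. In the serine pathway the ratio of PSAT1 to PSPH was 2.23 in the control, 1.63 and 1.57 with the COLCA2 guides and 1.57 with POU2F3 gRNA, while PHGDH to PSPH was 0.73 to 0.86 of the control over the 3 libraries. Unequal change between members was therefore present whichever scaling is used, although the same control library enters all of these ratios. Most pairs set a member above the control over one below it, so large ratios followed from that choice. Ratios of other gene pairs were not computed.

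Levels can be compared between genes only per length, here as normalized count per kb of the longest coding transcript in GENCODE release 29, which need not be the transcript that is used. In the non-targeting library PHGDH was highest at 4193, followed by SHMT2 at 2906, PSAT1 at 2613, ASNS at 1530.1, PSPH at 1176 and ATF4 at 565. DDIT3 at 259.5, TRIB3 at 233, SESN2 at 203 and CHAC1 at 191 formed the low end, where neighbours lay close and the control has no replicate. In each targeted library the order was the same but for 1 exchange, PSPH standing above ASNS. With the COLCA2 guides PSPH was at 1211 and 1213 per kb and ASNS at 967 and 922, which did not overlap.

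POU2F3 gRNA was also compared directly with the COLCA2 guides, which leaves the control out. It was below both guides for 7 members and above both for 0, where 38.9% and 35.6% of all genes lay below and above both. The 7 were ATF4, DDIT3, TRIB3, ASNS, PSAT1, PSPH and SHMT2, so they included members on either side of the control. Every difference was small, between -0.18 for PSAT1 and 0.097 for CHAC1 on the log2 scale against the mean of the guides. Against that mean 13 of 14 reference genes were also lower, with a median of -0.19, beside -0.12 for the members. Of 19 glycine and one-carbon genes, 13 were higher. A lower level than with the guides was thus not particular to the members. The edgeR test of the difference called 0 of 10 members, and 0 of 10 at an unadjusted p under 0.05, against 0.107% of genes called higher, 0.234% called lower and 13.6% at that unadjusted p. For PSAT1, with the largest difference, the adjusted p was 0.462. At 2-fold 0 members passed, beside 0.442% of all genes higher and 0.924% lower than both guides, and at 1.5-fold again 0, beside 1.92% and 2.5%. The guides themselves were 2-fold apart for 0 members and for 2.22% of all genes.

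The other genes known as targets of ATF4 or of the integrated stress response included several larger changes than any member. Of 24 genes 23 passed the minimum, FGF21 being at or under 1.04 throughout. With POU2F3 gRNA 6 were at least 2-fold higher and 0 lower, where 6.73% and 3.05% of all genes were. With both COLCA2 guides 5 were higher and 0 lower, where 5.79% and 2.02% of all genes were. The median log2 ratios were 0.30 for POU2F3 gRNA and 0.31 for the averaged COLCA2 guides. CEBPB, a C/EBP factor that also serves inflammatory and differentiation signals, had 928 in control cells, 3592 and 3808 under COLCA2 guides 1 and 2, and 3464 under POU2F3 gRNA. PPP1R15A encodes GADD34, the subunit that directs dephosphorylation of eIF2 and so ends the response, and it had 1508 in the control against 4264, 4583 and 4436 in the same order. By edgeR CEBPB and PPP1R15A rose with both targets, and all targeted libraries were more than 2-fold above the control.

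GDF15, a secreted stress cytokine that p53 also induces, rose with both targets by edgeR, from 82.1 in the control to between 683 and 1279.5. NDRG1, better known as a hypoxia gene, rose as well, from 123 to between 273 and 365. SQSTM1, the autophagy receptor p62 and an NRF2 target, had 3791 in the control, 7686 and 7801 with the COLCA2 guides and 6682 with POU2F3 gRNA, a log2 ratio of 1.02 and 1.04 with the guides and 0.82 with POU2F3 gRNA. These genes answer to other pathways too, so the list's count does not measure ATF4 alone. The 14 reference genes also lay mostly higher, with median log2 ratios of 0.12 (POU2F3 gRNA) and 0.27 (averaged COLCA2 guides). Of these reference genes 0 were past 2-fold with either target, but a higher level is not by itself particular to the stress-response list. By edgeR 8 of the 23 rose with each target, 0 fell with COLCA2 gRNA and 1 fell with POU2F3 gRNA, namely STC2, a secreted glycoprotein named here after its value was seen. Over all genes 8.45% rose and 3.98% fell under POU2F3 gRNA, and for COLCA2 gRNA 11.4% rose and 7.51% fell.

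DDIT4, which encodes the mTORC1 inhibitor REDD1, had 1229.9 in the control, 1475 and 1464 under COLCA2 guides 1 and 2, and 2579 under POU2F3 gRNA. It was 0.81 higher on the log2 scale under POU2F3 gRNA than under the averaged guides, a difference that passed the edgeR test (adjusted p = 0.0338). VLDLR, a lipoprotein receptor, had 49.7 in the control, 49.8 under COLCA2 guide 1, 118 under COLCA2 guide 2 and 140.2 under POU2F3 gRNA, so the guides disagreed. ATF3, a stress-induced repressor, rose with COLCA2 gRNA, from 1131 to 1647 and 1841 (adjusted p = 0.0122 by edgeR). CEBPG, the C/EBP partner of ATF4, was near level, at 1719.8 in the control and 1528 to 1571 elsewhere.

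**Figure D4:**
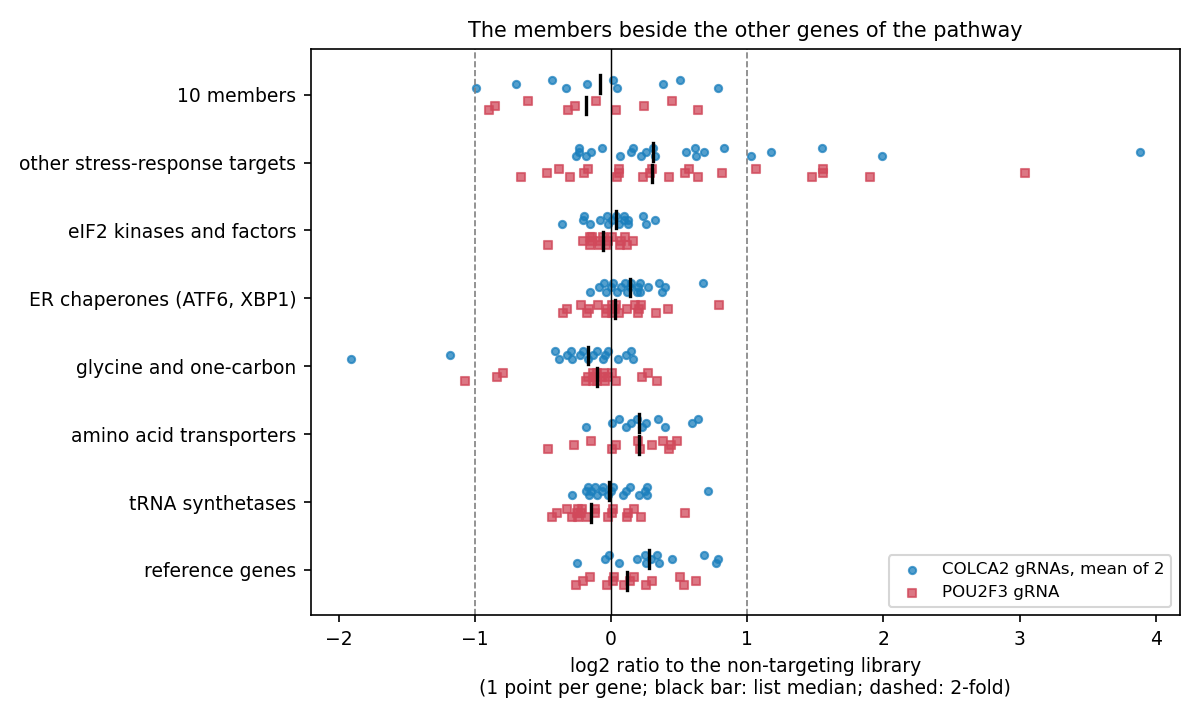
Log2 ratio to the non-targeting library of each gene past the minimum, by list, for the mean of the COLCA2 guides (circles) and for POU2F3 gRNA (squares), with the list median as a black bar and dashed lines at 2-fold. Points past 2-fold to the right are all in the list of other stress-response targets, and those past it to the left are in the glycine and one-carbon list.

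The list of the upstream arm held no gene past either threshold. Of 17 genes for the eIF2 kinases, eIF2, its exchange factor eIF2B and other phosphatase subunits, 0 were past 2-fold with either target and 0 passed the edgeR test, while at an unadjusted p under 0.05 there were 1 with COLCA2 gRNA and 0 with POU2F3 gRNA, beside 32.8% and 26.6% of all genes. PPP1R15A, the phosphatase subunit described above, was counted in the list of targets and not here. EIF2AK3, which encodes the kinase PERK of the endoplasmic reticulum, had 350.5 in the control, 299.6 and 310.5 under COLCA2 guides 1 and 2, and 253 under POU2F3 gRNA. EIF2AK4, which encodes the amino acid sensor GCN2, had 2135 in the control and 2082 to 2234 in the targeted libraries. Transcripts do not report the phosphorylation that sets the activity of these kinases.

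Chaperones and folding enzymes of the endoplasmic reticulum, which answer to ATF6 and XBP1, had 0 of 21 genes past 2-fold with either target. HSPA5, which encodes the chaperone BiP, had 6898 in the control, 8980 and 8931 under COLCA2 guides 1 and 2, and 7478 under POU2F3 gRNA, and it rose with COLCA2 gRNA by edgeR (adjusted p = 0.0211). By edgeR 3 genes of the list rose with COLCA2 gRNA, HSPA5, CALR and HERPUD1, and 1 rose with POU2F3 gRNA, HERPUD1 (adjusted p = 0.04997), while 11.4% and 8.45% of all genes rose, so these counts lie near the background. CALR and HERPUD1 are named after their values were seen. XBP1 had 1356 in the control and 1411 to 1655 in the targeted libraries. DNAJB9, an XBP1 target, was level, at 189 in the control and 177 to 221 elsewhere.

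Glycine and one-carbon genes lay mostly a little below the control. Of 19 genes 12 were lower in all 3 targeted libraries and 1 was higher, where 35.3% and 34.4% of all genes were, and the median log2 ratio was -0.10 for POU2F3 gRNA and -0.17 for the COLCA2 guides. At least 2-fold lower were AMT, with both targets, and GLDC, with both COLCA2 guides but not with POU2F3 gRNA (-0.84 on the log2 scale). Over all genes 3.05% were 2-fold lower with POU2F3 gRNA and 2.02% with both COLCA2 guides. AMT and GLDC both belong to the glycine cleavage system. GLDC, its decarboxylase, had 434 in the control, 172 and 211 under COLCA2 guides 1 and 2, and 243 under POU2F3 gRNA, and fell with COLCA2 gRNA by edgeR (adjusted p = 0.00844). AMT had 63.0 in the control and 12.9 to 29.4 elsewhere, from few reads, and it also fell with COLCA2 gRNA (adjusted p = 0.0304).

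Among the enzymes next to SHMT2, MTHFD2 had 3158 in the control, 2441 and 2985 with the COLCA2 guides and 2875 with POU2F3 gRNA. MTHFD2, a mitochondrial folate enzyme and frequent ATF4 target, thus differed more between the guides than between some targeted libraries and the control. MTHFD1L, the formate-releasing enzyme of the same pathway, had 2016 in the control and 1775 to 1891 elsewhere. ALDH1L2, which also works in mitochondria, had 228 in the control, 184 and 225 with the COLCA2 guides and 276 with POU2F3 gRNA. The cytosolic SHMT1 had 1476 in the control and 1081 to 1375 elsewhere. None of MTHFD2, MTHFD1L, ALDH1L2 and SHMT1 passed the edgeR test.

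Amino acid transporters, which ATF4 also drives, had 0 of 12 genes past 2-fold and 0 past the edgeR test, with a median log2 ratio of 0.21 for each target. At an unadjusted p under 0.05 there were 5 for COLCA2 gRNA and 3 for POU2F3 gRNA, near the 32.8% and 26.6% of all genes. SLC7A11, the cystine carrier, had 1576 in the control, 1483 and 1695 under COLCA2 guides 1 and 2, and 1141 under POU2F3 gRNA. SLC3A2, its heavy-chain partner, had 2087 in the control, 2168 under COLCA2 guide 1, 3494 under COLCA2 guide 2 and 2912 under POU2F3 gRNA, a wide gap between the guides. SLC7A5, the leucine carrier, had 3789 in the control and 3796 to 4443 elsewhere. The cytosolic tRNA synthetases had 0 of 20 genes past 2-fold, with medians of -0.15 under POU2F3 gRNA and -0.013 under the COLCA2 guides on the log2 scale. By edgeR WARS, which interferon also induces, rose with both targets, and VARS fell with POU2F3 gRNA; both are named after their values were seen.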

How the data were processed

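Poly(A) RNA-seq libraries of NCI-H1048 cells were deposited by the authors as 1 table of normalized counts per library. The deposited signal values are, per the file headers, normalized counts, here found to be reads scaled by 1 factor in each library. The authors' way of setting it is not given in the sources used here. The submitters' processing notes name Salmon, DESeq2 and hg38 without roles or versions. All values came out as whole reads within 0.01 reads once divided by the step of each library, which gave 21587741 to 29632382 reads per library.

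Rows of the same symbol were summed (38145 rows, 35979 symbols). Log2 ratios used a pseudocount of 1, genes with a mean of at least 20 and a 2-fold threshold, which both COLCA2 guides had to pass. Intervals are 95% exact binomial (Clopper-Pearson) intervals and cover counting error only. edgeR 4.0.16 (R 4.3.3) fitted the recovered reads in 3 groups with TMM factors, and genes were tested with its quasi-likelihood test and Benjamini-Hochberg adjustment. The script was tested on simulated data, in which all genes had the same dispersion and the targeted libraries shared each change. The 2-fold rule and edgeR each found every simulated log2 change of 2 but missed most of those of 0.7. A log2 change of 0.7 lies under 2-fold, so the 2-fold rule was bound to miss most of these. The simulation checks the code and does not measure what would be found in these libraries. Tables were handled in Python 3.11.15 with pandas 2.3.3.

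Genes named are the 10 members, the targeted genes, a fixed set from the lists and any list gene past 2-fold. A rule to name the genes most like each member past 2-fold named none, since 0 members passed. The members and lists were chosen with earlier results of these data known. Read as different guides, the COLCA2 libraries would come from separately targeted cells, but their titles only number them. The p-values thus measure only the spread between these samples, which may be technical. The neuroendocrine marker list is not reported here as a whole.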

Additional observations from a re-analysis of the deposited data

Results flagged for a closer look

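DDIT4 was 0.81 higher on the log2 scale under POU2F3 gRNA than under the averaged COLCA2 guides, and edgeR's test of that difference passed (adjusted p = 0.0338). Among the members and the list genes chosen by the naming rule, in 3 others POU2F3 gRNA and both COLCA2 guides lay on opposite sides of the non-targeting library, and the difference itself missed the edgeR threshold in each. PSPH was 0.15 lower with POU2F3 gRNA than with the guides (a log2 difference of -0.15, adjusted p = 0.544 by edgeR). ALDH1L2 was 0.44 higher (adjusted p = 0.427 by edgeR), and EIF2AK4 was 0.087 higher (adjusted p = 0.699 by edgeR).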

How the results depend on the processing

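The control and POU2F3 gRNA have 1 library each, so library and condition cannot be told apart there. No paired analysis was possible because no 2 compared groups have more than 1 replicate number in common. Of the members' log2 ratios to the control, those of SESN2 and PSPH with COLCA2 gRNA changed sign: with equal totals to -0.055 and -0.025, with upper quartile scaling to -0.031 and -0.0013, and SESN2 also without COLCA2 gRNA 2 (-0.045). The other members kept their sign in the 7 settings run for POU2F3 gRNA and the 9 for COLCA2. Against the guides, CHAC1 (-0.12) and SESN2 (-0.035) changed sign without COLCA2 gRNA 1, and PHGDH (-0.066) without COLCA2 gRNA 2. Scalings moved the median of all genes by less than 0.1.

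Members past the threshold with POU2F3 gRNA numbered 0, but 4 at 1.5-fold and 2 by edgeR. With COLCA2 gRNA they numbered 0, but 3 at 1.5-fold, 5 by edgeR, and 0 to 1 when either guide was left out (CHAC1 without COLCA2 gRNA 2). Over all genes, 1460 were past 2-fold with POU2F3 gRNA, against 2971 at 1.5-fold, 478 at 4-fold, 864 with a minimum mean of 100 and 4190 with no minimum. With COLCA2 gRNA 1167 were, against 2352 at 1.5-fold, 390 at 4-fold, 757 with a minimum of 100, 2885 with no minimum and 2831 by edgeR. Between POU2F3 gRNA and the guides 204 were, against 660 at 1.5-fold, 39 at 4-fold, 73 with a minimum of 100, 1603 with no minimum, 51 by edgeR and 460 to 473 with either guide left out. The cause was not tested.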
